A study of Mus musculus with 8 samples.

Results

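Polycomb repressive complex 1.6 (PRC1.6) is a chromatin complex that keeps germline and meiotic genes silent before meiotic entry. The mRNAs of 10 genes that encode its subunits were followed here. Mga, Max, E2f6, Tfdp1, Rnf2, Ring1, Pcgf6, Rybp, L3mbtl2 and Cbx3 were taken by gene symbol from a table of 55421 genes. All 10 passed the filter on low counts, which left 20588 genes for testing. The libraries came from primary cultures of mouse spermatogonia derived from 6-day-old pups of a C57BL/6XDBA/2 background (F1 hybrid in the study's methods), kept on irradiated embryonic fibroblasts of outbred CF1 mice with GDNF and bFGF. Cultures from Stra8-deficient mice (Stra8KO) and cultures labelled as Spo11-deficient (Spo11KO-labelled) received either vehicle in normal medium (Veh) or nutrient restriction medium with retinoic acid (NRRA) for 48 h. By the study's methods, nutrient restriction medium was culture medium diluted with a balanced salt solution, which dilutes its GDNF and bFGF as well. STRA8 is the retinoic acid target that gates meiotic initiation, and SPO11 makes meiotic DNA breaks. Each of the 4 groups had 2 libraries of poly(A) RNA. By the study's account these were independent biological replicates, and whether each had its own culture derivation is not stated. The p-values measure the spread between these libraries. Wild-type cultures were not analysed here.

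PRC1.6 combines DNA binding with histone ubiquitination. MGA pairs with MAX and reads E-boxes, while E2F6 pairs with DP1 (the product of Tfdp1) and reads E2F sites. RNF2 and RING1 are alternative ubiquitin ligases for histone H2A, PCGF6 is the subunit that defines the complex, and RYBP stimulates the ligase. L3MBTL2 and CBX3 (also called HP1 gamma) bind chromatin and methylated histones. Loss of MGA, MAX, E2F6 or PCGF6 in embryonic stem cells is known to release germline genes that are otherwise silent there.

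The promoters of the target genes show the letters these DNA-binding subunits read. RefSeq promoters (GRCm38.p6, 250 bases before to 50 after a start site) were found for 23 of 24 genes, namely 14 target genes with 15 promoters and 9 of the subunit genes with 11 promoters. Rybp had no entry. An E-box (CACGTG, the same on both strands) was in 9 of the 15 target promoters, against 7.15% of 32851 promoters of the same length. Both promoters of Stk31 hold the same E-box, and by gene the count was 8 of 14, against 8.09% of 27025 genes. The E2F6 letters (TCCCGC on either strand, read as GCGGGA on the other) were in 9 of the 15 target promoters, against 19.98% of all. No matches of these motifs overlapped. The target genes were listed because they are known as targets of these factors, so these shares describe the list. Below are stretches of 4 target promoters, chosen because their genes had called interactions below 0 (Sycp3, Stag3 and Smc1b, described below) or as a further example with both motifs (Ddx4). Both motifs were in the promoters of Sycp3, Stag3, Ddx4, Slc25a31, Mael and Sycp1, and the stretch shown for Stag3 leaves out its E2F6 letters, which lie at the start site. Each runs 5′ to 3′ on the strand of its gene, with matches in capitals. Sycp3 lies at chr10:88459428-88459561 on the plus strand, Stag3 at chr5:138280327-138280356 on the plus strand, Smc1b at chr15:85131987-85132016 on the minus strand and Ddx4 at chr13:112652322-112652458 on the minus strand.
Sycp3: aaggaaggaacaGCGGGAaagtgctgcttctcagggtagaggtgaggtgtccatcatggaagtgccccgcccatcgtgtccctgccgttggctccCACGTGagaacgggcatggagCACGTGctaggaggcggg
Stag3: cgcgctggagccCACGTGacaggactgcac
Smc1b: aaaagaatttctTCCCGCgctttttttttt
Ddx4: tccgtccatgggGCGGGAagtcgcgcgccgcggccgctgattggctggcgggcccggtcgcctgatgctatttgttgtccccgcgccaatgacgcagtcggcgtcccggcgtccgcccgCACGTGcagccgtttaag

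Among the subunit genes, the E2F6 letters were in the promoters of E2f6, Tfdp1 and Rnf2, and an E-box was in those of Max and Tfdp1. The T-box letters read by the other DNA-binding domain of MGA (AGGTGTGA, either strand) was in none of the 11 subunit promoters, in 1 of the 15 target promoters (Sycp3) and in 1.28% of all. The stretches of the subunit genes with E2F6 letters are shown because 1 of these genes encodes the factor itself and another its DNA-binding partner. E2f6 lies at chr12:16810900-16810929 on the plus strand, Rnf2 at chr1:151501202-151501231 on the minus strand and Tfdp1 at chr8:13338508-13338690 on the plus strand. The Tfdp1 stretch also holds the E-box, as its first match in capitals.
E2f6: ggaccggtgtgcGCGGGAgatctaacggac
Rnf2: gaaacctcagcaGCGGGAgggaaggcgcaa
Tfdp1: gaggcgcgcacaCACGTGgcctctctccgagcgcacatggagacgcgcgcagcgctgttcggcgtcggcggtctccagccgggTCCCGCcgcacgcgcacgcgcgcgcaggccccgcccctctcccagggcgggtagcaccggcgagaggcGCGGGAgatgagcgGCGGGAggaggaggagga

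Facts of the series that touch the results are these. Library totals ran from 20960794 to 27038868 counts, and the common biological coefficient of variation was 3.39%. Stra8 counts were 2 and 0 (Veh) and 169 and 170 (NRRA) for Stra8KO, and 28 and 12 (Veh) and 12604 and 16191 (NRRA) for Spo11KO-labelled libraries. Spo11 had 72, 75, 148 and 127 counts in Spo11KO-labelled libraries and fewer, 32, 31, 68 and 66, in Stra8KO, so gene counts did not check that label. Germ cell markers were present in every library. The 16 fibroblast markers, which the feeder layer expresses, took 2.44 to 2.51% of counts in Stra8KO Veh and 3.99 to 4.04% in Stra8KO NRRA. In Spo11KO-labelled libraries they took 1.40 to 1.40% in Veh and 2.34 to 2.44% in NRRA. These markers did not move together under NRRA, with 11 called higher and 4 lower in Stra8KO. In Spo11KO-labelled cultures 11 were called higher and 5 lower. In Stra8KO, for example, mean Col1a1 went from 4145 to 11430 CPM and mean Fn1 from 10530 to 7869 CPM. The 8 pan-germ markers took 0.0660 to 0.0670% and 0.0769 to 0.0808% in Stra8KO, against 0.146 to 0.148% and 0.171 to 0.175% in Spo11KO-labelled libraries. The 6 macrophage markers stayed at or below 0.00584% and the 6 Sertoli cell markers at or below 0.00428%. C1qb of the former and Fshr of the latter were at 0 counts in at least 1 library. Other genes of these lists were expressed, such as Lyz2 of the former (210 to 705 counts) and Sox9 of the latter (256 to 905 counts).

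All 10 subunits were expressed in every library, and together they took 0.0626 to 0.0637% of counts in Stra8KO Veh, 0.0667 to 0.0679% in Stra8KO NRRA, 0.0943 to 0.0955% in Spo11KO-labelled Veh and 0.0954 to 0.0979% in Spo11KO-labelled NRRA. Levels between genes were compared as CPM (counts per 1e+06 counts of the TMM-scaled library) per kb of merged exon. On that scale Tfdp1 stood first in every group, at 36.9 ± 0.551 (Veh) and 30.9 ± 0.262 (NRRA) for Stra8KO and at 49.6 ± 1.39 (Veh) and 41.8 ± 0.743 (NRRA) for Spo11KO-labelled cultures (mean ± SD, n = 2 each). Ring1 stood last in every group, at 2.24 ± 0.122, 3.80 ± 0.116, 2.25 ± 0.0424 and 2.91 ± 0.0792 in the same order (mean ± SD, n = 2 each). In Stra8KO Veh the order between them was Max, Mga, Rnf2, Cbx3, L3mbtl2, E2f6, Rybp and Pcgf6, and the libraries of only 1 neighbouring pair, Mga and Rnf2, overlapped. In Spo11KO-labelled Veh the libraries of L3mbtl2 and Cbx3, of Cbx3 and Rnf2, and of Rybp and Pcgf6 overlapped. In Stra8KO NRRA no neighbouring pair overlapped, and in Spo11KO-labelled NRRA the overlapping pairs were Rnf2 and Max, Cbx3 and L3mbtl2, and Rybp and E2f6. Exons that these cells do not use lower a per-length level, and which were used was not tested.

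**Figure D1:**
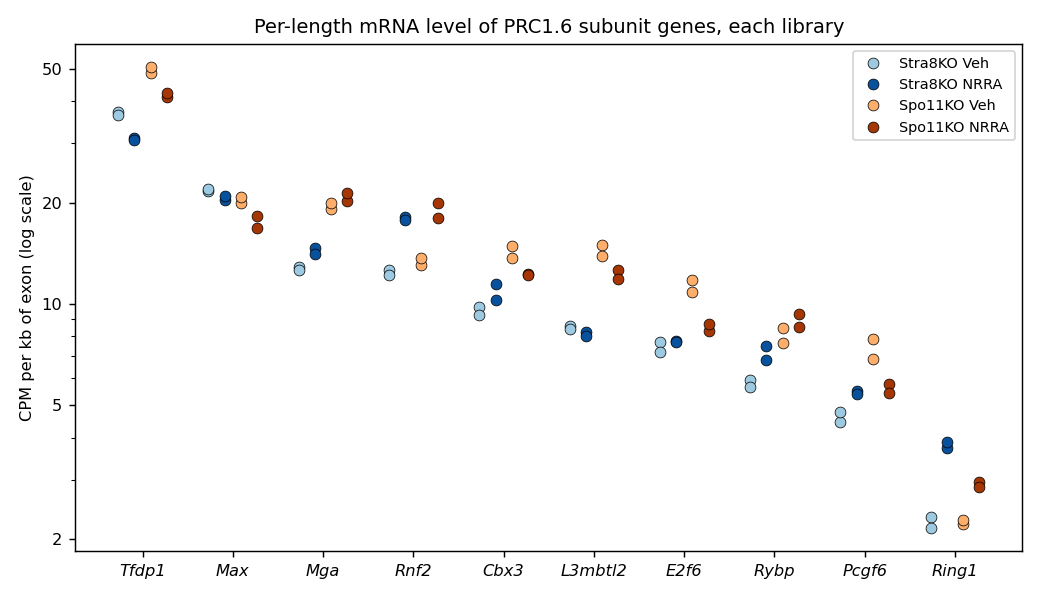
Level of each subunit mRNA in CPM per kb of merged exon (log scale), with 1 point per library and colours for the 4 groups. Tfdp1 lies at the top in every group, between 30.7 and 50.6, and Ring1 at the bottom, between 2.16 and 3.89.

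The first question was how NRRA moved the subunits. In Stra8KO 6 subunits were called higher under NRRA and 1 lower, and in Spo11KO-labelled cultures 2 were called higher and 6 lower. A call is an adjusted p under 0.05 from the quasi-likelihood test of edgeR, adjusted by Benjamini-Hochberg over all 20588 tested genes. Calls were common, with 41.9% of all genes called in Stra8KO (21.6% higher and 20.2% lower) and 49.9% in Spo11KO-labelled cultures (24.5% higher and 25.5% lower). The median log2 change of the subunits was 0.18 in Stra8KO and -0.22 in Spo11KO-labelled cultures, where the median of all tested genes was 0.01 and 0.01. When libraries were scaled by total counts instead of TMM, the share of all calls in Spo11KO-labelled cultures that were higher went from 49.0% to 61.7%, and the subunits counted 4 higher and 6 lower.

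**Figure D2:**
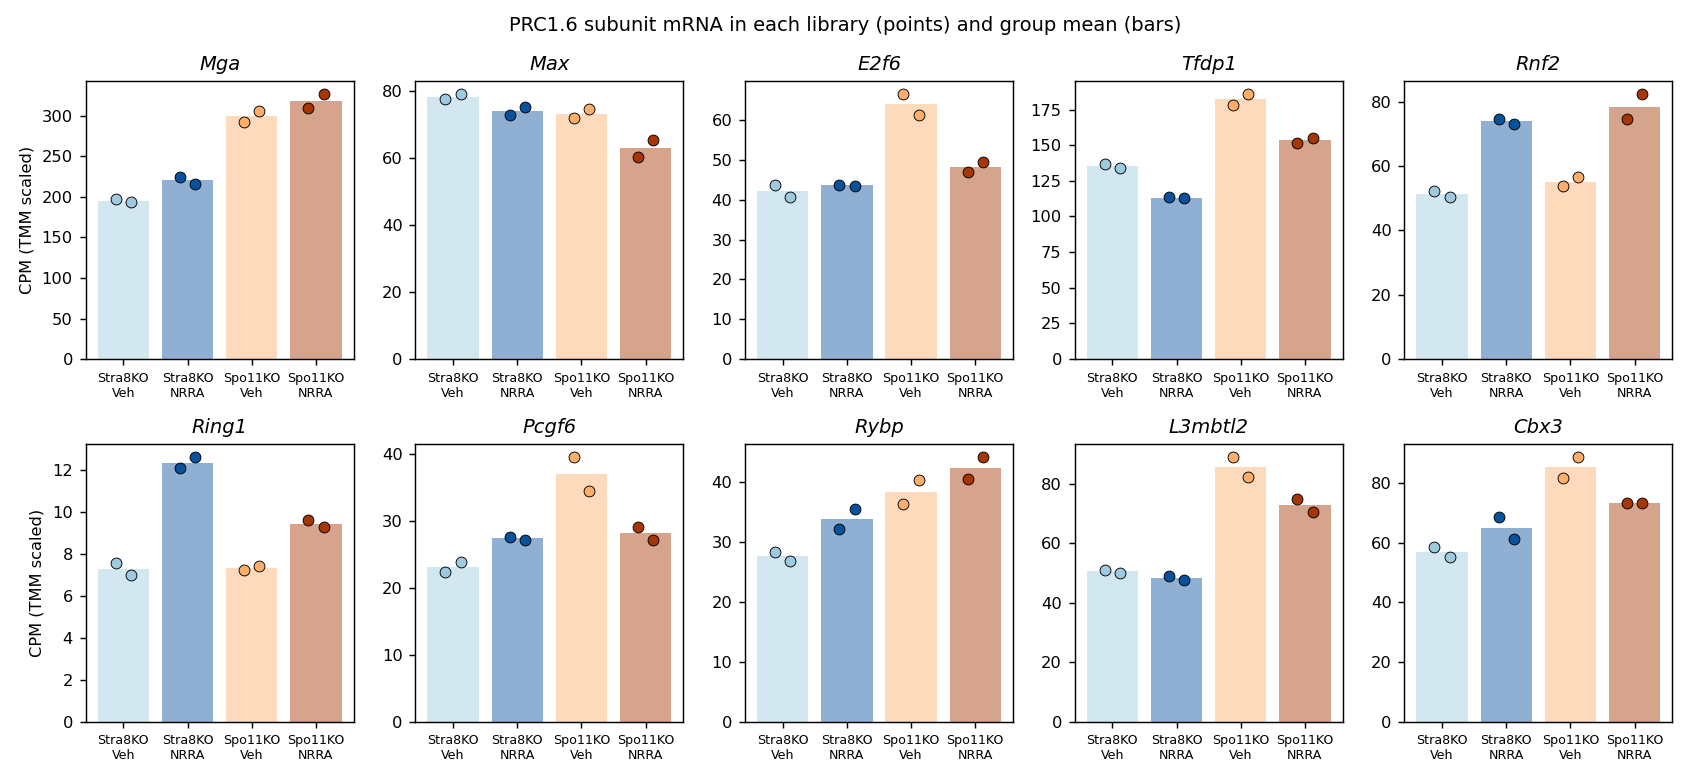
Level of each subunit mRNA in CPM in the 8 libraries (points) with the group mean (bars from 0), in the order Stra8KO Veh, Stra8KO NRRA, Spo11KO Veh, Spo11KO NRRA. Rnf2 and Ring1 were higher in NRRA than in Veh in both genotypes. Pcgf6, E2f6, Cbx3, Tfdp1 and L3mbtl2 were highest in Spo11KO-labelled Veh libraries.

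**Figure D3:**
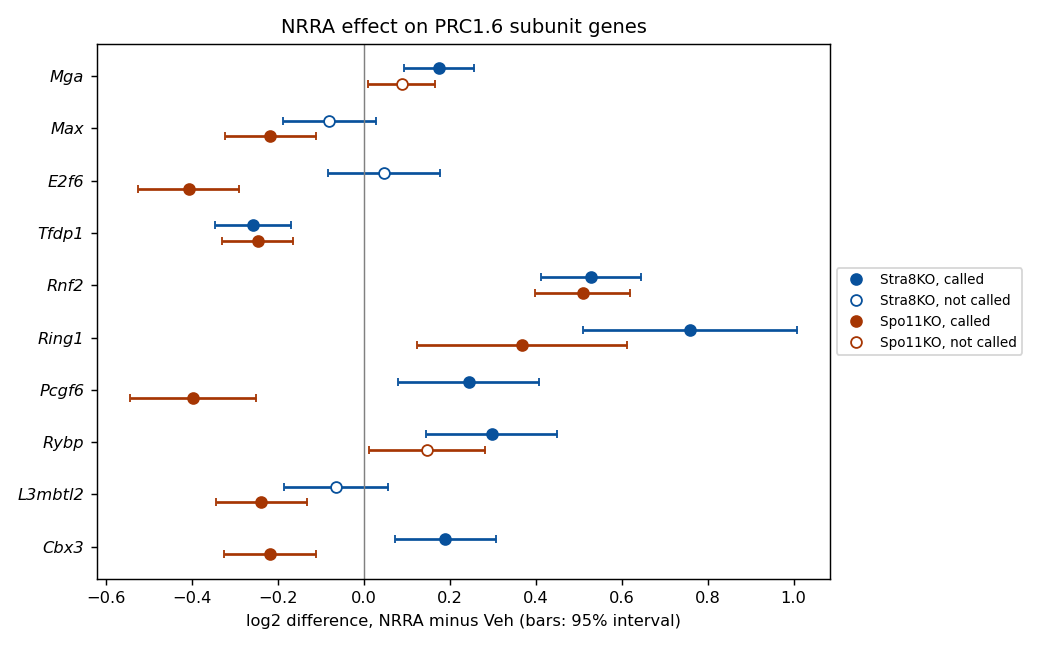
Log2 difference between NRRA and Veh for each subunit in Stra8KO (blue) and in Spo11KO-labelled cultures (red), with 95% intervals from the edgeR fit. Filled points were called. Rnf2 lay at 0.53 and 0.51, and Pcgf6 lay on opposite sides of 0, at 0.24 and -0.40.

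The ubiquitin ligase genes rose most. Rnf2 (chromosome 1, 151458004 to 151500955, minus strand, GRCm38, GENCODE M21), the main ligase of Polycomb complexes, had 52.2 and 50.3 CPM in Stra8KO Veh and 74.7 and 73.2 CPM in Stra8KO NRRA. It had 53.9 and 56.4 CPM in Spo11KO-labelled Veh and 74.6 and 82.3 CPM in Spo11KO-labelled NRRA. Every NRRA library thus lay above every Veh library. The rise was 1.44-fold in Stra8KO (log2 0.53, SE 0.0577, edgeR adjusted p 6.30e-11) and 1.42-fold in Spo11KO-labelled cultures (log2 0.51, SE 0.0549, edgeR adjusted p 3.61e-11). The rises did not differ detectably, with a difference of 0.02 (log2, 95% interval -0.14 to 0.18). Rnf2 shares 158 bases of exon with Trmt1l on the opposite strand, 3.83% of its exon length.

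Ring1 (chromosome 17, 34020792 to 34024680, minus strand), the less abundant ligase, had 7.56 and 6.999 CPM in Stra8KO Veh and 12.1 and 12.6 CPM in Stra8KO NRRA. Spo11KO-labelled libraries had 7.20 and 7.40 CPM in Veh and 9.61 and 9.25 CPM in NRRA. Here too the NRRA libraries lay above all Veh libraries. Ring1 rose 1.69-fold in Stra8KO (log2 0.76, SE 0.123, edgeR adjusted p 1.11e-06), which was the largest change of any subunit in any of the NRRA comparisons. In Spo11KO-labelled cultures it rose 1.29-fold (log2 0.37, SE 0.122, edgeR adjusted p 0.00969). This call was lost without Veh replicate 1 (adjusted p 0.0607) or NRRA replicate 1 (0.0662) of Spo11KO-labelled libraries, and with DESeq2 (0.0546). The difference between the rises was 0.39 (log2, 95% interval 0.04 to 0.74), with an adjusted p of 0.0984. Per length, Rnf2 exceeded Ring1 by 4.57 to 6.99 times across the 8 libraries, and lowest in Stra8KO NRRA.

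Rybp (chromosome 6, 100228565 to 100287485, minus strand), the ligase stimulator, had 28.2 and 26.8 CPM in Stra8KO Veh and 32.2 and 35.5 CPM in Stra8KO NRRA. It had 36.3 and 40.3 CPM in Spo11KO-labelled Veh and 40.5 and 44.1 CPM in Spo11KO-labelled NRRA. The groups did not overlap within either genotype, but those labelled Spo11KO came within 1 CPM of each other. Rybp rose 1.23-fold in Stra8KO (log2 0.30, SE 0.0758, edgeR adjusted p 0.00112), though the adjusted p was 0.0542 without NRRA replicate 2. In Spo11KO-labelled cultures its difference was 0.15 (log2, SE 0.0675, edgeR adjusted p 0.0666), which did not pass. That difference passed in edgeR at an adjusted p of 0.00252 with total counts and 0.0134 with no filter. It lay at 0.21 without Veh replicate 2 and at 0.20 without NRRA replicate 1. A pseudogene of Rybp held 37 counts over the 8 libraries, beside 6730 for the gene.

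Pcgf6 (chromosome 19, 47033617 to 47050906, minus strand), the subunit that sets this complex apart from other Polycomb complexes, went in opposite directions. It had 22.5 and 23.9 CPM in Stra8KO Veh and 27.7 and 27.2 CPM in Stra8KO NRRA. It had 39.6 and 34.6 CPM in Spo11KO-labelled Veh and 29.1 and 27.2 CPM in Spo11KO-labelled NRRA. The NRRA libraries of both genotypes lay close to each other, between the levels of the Veh groups. Pcgf6 rose 1.18-fold in Stra8KO (log2 0.24, SE 0.0814, edgeR adjusted p 0.0130) and fell 1.32-fold in Spo11KO-labelled cultures (log2 -0.40, SE 0.0726, edgeR adjusted p 7.53e-06). The rise lost its call without Stra8KO Veh replicate 1 (adjusted p 0.151) and without Stra8KO NRRA replicate 1 (adjusted p 0.0638), and DESeq2 gave an adjusted p of 0.103. The fall was called without any single library.

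Of the DNA-binding subunits, Tfdp1 fell in both genotypes. Tfdp1 (chromosome 8, 13338751 to 13378448, plus strand), the dimer partner of E2F proteins, had 137 and 134 CPM in Stra8KO Veh and 114 and 113 CPM in Stra8KO NRRA. It had 179 and 186 CPM in Spo11KO-labelled Veh and 152 and 155 CPM in Spo11KO-labelled NRRA. The groups were well apart in each genotype. The fall was 1.20-fold in Stra8KO (log2 -0.26, SE 0.0438, edgeR adjusted p 2.61e-06) and 1.19-fold in the other cultures (log2 -0.25, SE 0.0411, edgeR adjusted p 1.32e-06). Their difference was -0.01 (log2, 95% interval -0.13 to 0.11).

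E2f6 (chromosome 12, 16810963 to 16839742, plus strand), an E2F family member that represses without activating, fell in Spo11KO-labelled cultures. It had 66.5 and 61.4 CPM in Veh and 47.0 and 49.4 CPM in NRRA of these cultures, a fall of 1.33-fold (log2 -0.41, SE 0.0583, edgeR adjusted p 5.36e-08). In Stra8KO it had 43.7 and 40.7 CPM in Veh and 43.8 and 43.5 CPM in NRRA. The Stra8KO libraries in the plot of CPM by library nearly coincide across media, with a difference of 0.05 (log2, 95% interval -0.08 to 0.18) that was not called.

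Mga (chromosome 2, 119897228 to 119969581, plus strand) encodes the scaffold that joins MAX to the complex. It had 198 and 194 CPM in Stra8KO Veh, 225 and 216 CPM in Stra8KO NRRA, 293 and 306 CPM in Spo11KO-labelled Veh and 309 and 327 CPM in Spo11KO-labelled NRRA. Mga was therefore slightly higher after NRRA in each genotype, with groups that did not overlap. The rise of 1.13-fold in Stra8KO was called (log2 0.17, SE 0.0406, edgeR adjusted p 3.74e-04). The difference of 0.09 in Spo11KO-labelled cultures was not (log2, SE 0.0387, edgeR adjusted p 0.0553). In edgeR it passed with size factors (adjusted p 0.0485), total counts (5.51e-05), no filter (0.00489) and a filter on a mean of 10 counts (0.0431). Without NRRA replicate 1 it lay at 0.12.

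Max (chromosome 12, 76937269 to 76962201, minus strand), which also serves MYC and MXD proteins, had 77.7 and 79.1 CPM in Stra8KO Veh and 73.0 and 75.2 CPM in Stra8KO NRRA. It had 71.9 and 74.8 CPM in Spo11KO-labelled Veh and 60.4 and 65.6 CPM in Spo11KO-labelled NRRA. Max ran over a narrower relative range than Mga. It fell 1.16-fold in Spo11KO-labelled cultures (log2 -0.22, SE 0.0526, edgeR adjusted p 4.69e-04), and in Stra8KO its difference of -0.08 was not called (log2, SE 0.0533, edgeR adjusted p 0.238). Per length, the ratio of Max to Mga was 1.68 and 1.74 (Veh) and 1.38 and 1.48 (NRRA) for Stra8KO, and 1.05 and 1.04 (Veh) and 0.833 and 0.856 (NRRA) for Spo11KO-labelled libraries. The 4 groups did not overlap in this ratio, which was not tested.

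The chromatin readers differed in Stra8KO and fell together in Spo11KO-labelled cultures. L3mbtl2 (chromosome 15, 81663889 to 81688315, plus strand) had 51.03 and 50.1 CPM in Stra8KO Veh, 49.1 and 47.7 CPM in Stra8KO NRRA, 89.0 and 82.4 CPM in Spo11KO-labelled Veh and 75.0 and 70.4 CPM in Spo11KO-labelled NRRA. It fell 1.18-fold in Spo11KO-labelled cultures (log2 -0.24, SE 0.0525, edgeR adjusted p 1.38e-04), and its difference of -0.06 in Stra8KO was not called (edgeR adjusted p 0.420). L3mbtl2 shares 1023 bases of exon (17.2%) with Chadl on the opposite strand, which had 3273 counts in all beside 12198 for L3mbtl2. Whether the authors' counting used strand is not stated in the sources used here, so reads of this stretch may belong to either gene.

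Cbx3 (chromosome 6, 51470360 to 51483704, plus strand) had 58.5 and 55.4 CPM in Stra8KO Veh and 68.6 and 61.4 CPM in Stra8KO NRRA. It had 81.9 and 88.8 CPM in Spo11KO-labelled Veh and 73.4 and 73.3 CPM in Spo11KO-labelled NRRA. Like Pcgf6, it moved in opposite directions. It rose 1.14-fold in Stra8KO (log2 0.19, SE 0.0585, edgeR adjusted p 0.00696) and fell 1.16-fold in Spo11KO-labelled cultures (log2 -0.22, SE 0.0536, edgeR adjusted p 5.61e-04). The rise was not called without Stra8KO NRRA replicate 1 (log2 0.11, adjusted p 0.236), without Stra8KO Veh replicate 2 (log2 0.15, adjusted p 0.110) or by DESeq2 (adjusted p 0.0782). The fall was called without any single library. A group of 8 pseudogene rows of Cbx3 held 422 counts, beside 13193 for the gene, and reads they share with it are uncertain.

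Whether the NRRA effect depended on genotype was tested by the interaction, the log2 change in Stra8KO minus that in Spo11KO-labelled cultures. Of the 10 subunits, 3 were called higher and 0 lower, against 25.1% of all genes called (14.8% higher and 10.3% lower). At an unadjusted p under 0.05 the edgeR counts were 5 higher and 0 lower, and DESeq2 called 3 higher and 0 lower. The called subunits were Pcgf6 (0.64, SE 0.109, edgeR adjusted p 6.80e-06), E2f6 (0.45, SE 0.0869, edgeR adjusted p 5.04e-05) and Cbx3 (0.41, SE 0.0794, edgeR adjusted p 6.46e-05). All 3 were called whichever library was left out, with ranges of 0.54 to 0.74, 0.39 to 0.51 and 0.33 to 0.48. The median of the 10 subunits was 0.16 and that of all genes 0.01. L3mbtl2 had 0.17 (95% interval 0.01 to 0.33, adjusted p 0.109) and passed only without Spo11KO-labelled Veh replicate 2 (0.23, adjusted p 0.0388). With total counts, the share of all called interactions that were higher went from 59.0% to 38.7%, and the same count of 3 subunits was called higher. The 8 markers of undifferentiated spermatogonia were highest in Spo11KO-labelled Veh. They took 0.0507 to 0.0510% of counts in Stra8KO Veh, 0.0509 to 0.0512% in Stra8KO NRRA, 0.123 to 0.126% in Spo11KO-labelled Veh and 0.0313 to 0.0315% in Spo11KO-labelled NRRA, and 8 of 8 had a called, positive interaction (median 2.68). Their part in the subunit results was not tested, and in bulk RNA fewer cells of a type and less RNA per cell cannot be told apart.

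The genotypes were then compared within each medium. In Veh, 7 subunits were called lower in Stra8KO than in Spo11KO-labelled cultures and 0 higher, where 62.3% of all genes were called (31.6% higher and 30.7% lower). At an unadjusted p under 0.05 edgeR also had 0 higher, as did DESeq2's adjusted calls. L3mbtl2 differed most, at 1.69-fold lower (log2 -0.76, SE 0.0560, edgeR adjusted p 8.74e-17). Pcgf6 (log2 -0.68), Mga (-0.61), E2f6 (-0.60), Cbx3 (-0.58), Rybp (-0.47) and Tfdp1 (-0.43) were also lower. The groups did not overlap for these, but nor did they for Max and Rnf2, so non-overlap does not set the called subunits apart. Max was at 0.10 (95% interval -0.01 to 0.20), Rnf2 at -0.11 (95% interval -0.22 to 0.01) and Ring1 at -0.0015 (95% interval -0.27 to 0.26), none of them called. With total counts Max lay at -0.018 and Rnf2 was called lower (log2 -0.22). The median of the 10 was -0.53 and that of all genes 0.0012.

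After NRRA, 6 subunits were called lower in Stra8KO and 2 higher, where 64.0% of all genes were called (35.0% higher and 28.9% lower). L3mbtl2 (log2 -0.59, SE 0.0564), Mga (-0.53, SE 0.0394), Tfdp1 (-0.44, SE 0.0428) and Rybp (-0.32, SE 0.0695) kept a called difference in each run that left out 1 library. Cbx3 was lower by a log2 of -0.17 (edgeR adjusted p 0.00559), or -0.098 without a call when Stra8KO NRRA replicate 2 was left out. E2f6 lay at -0.14 (edgeR adjusted p 0.0387) and lost the call in 3 of the 8 runs that left out a library, namely Stra8KO NRRA replicate 1 (-0.15), Stra8KO NRRA replicate 2 (-0.14) and Spo11KO-labelled NRRA replicate 2 (-0.10). DESeq2 did not call it either (log2 -0.16, adjusted p 0.0684), which left 5 subunits lower. Max (log2 0.23) and Ring1 (log2 0.39) were called higher. With total counts these lost their calls (0.026 and 0.18), Rnf2 (-0.29) and Pcgf6 (-0.25) were called lower, and the share of all calls that were higher went from 54.8% to 39.5%. In the main fit Rnf2 lay at -0.09 and was not called. It was also called lower with no filter (-0.14) and with only the 4 libraries compared (-0.16). Without Spo11KO-labelled NRRA replicate 1, Rnf2 lay at -0.16. Pcgf6, which differed 1.601-fold between genotypes in Veh, differed by -0.04 after NRRA (95% interval -0.19 to 0.12).

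**Figure D4:**
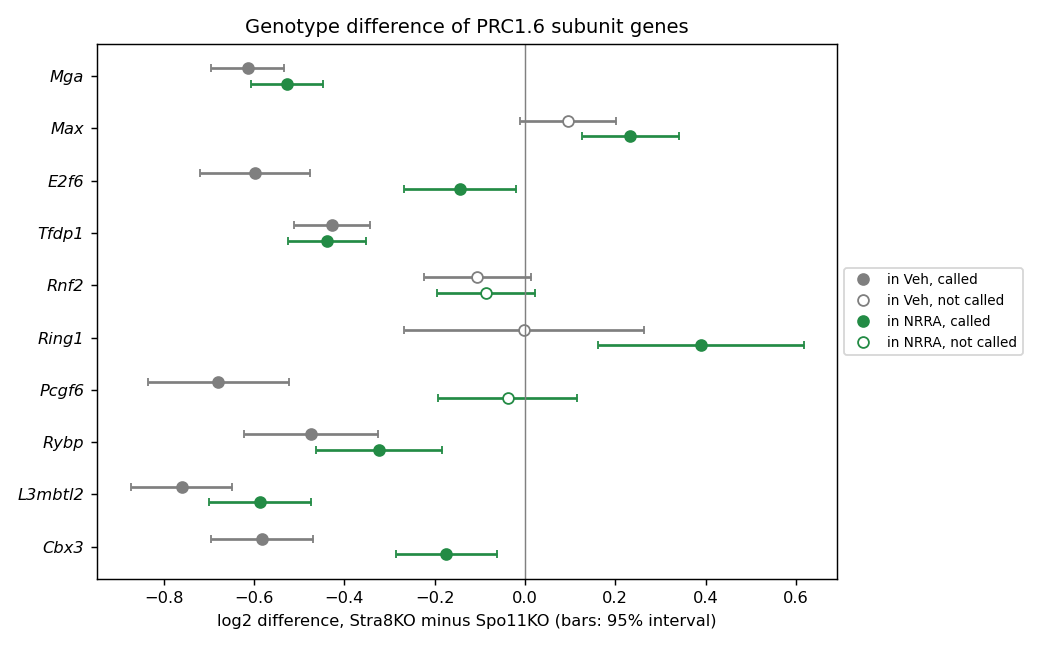
Log2 difference between Stra8KO and Spo11KO-labelled cultures for each subunit in Veh (grey) and in NRRA (green), with 95% intervals from the edgeR fit and filled points for calls. In Veh 7 subunits lay between -0.76 and -0.43, and in NRRA Pcgf6 lay at -0.04 and Ring1 at 0.39.

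The genotype differences came with markers of cell makeup. In either medium the 16 fibroblast markers were each called higher in Stra8KO, with medians of 0.89 in Veh and 0.96 in NRRA. Of the 8 pan-germ markers, 8 were called lower in Veh (median -0.97), and 7 were lower and 1 (Nanos3) higher in NRRA (median -0.91). Undifferentiated markers were lower in Stra8KO in Veh for 8 of 8 (median -1.30) and higher in NRRA for 7 of 8 (median 1.24). The subunit medians of -0.53 and -0.16 had the sign of the pan-germ medians and were smaller. The part of cell makeup in these differences was not tested, and genotype, culture and cell makeup cannot be told apart by design.

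A further list held 9 genes, other subunits of the complex together with alternative partners, E2F proteins among them. The interaction was called for 25.1% of all genes (14.8% higher and 10.3% lower). Of these 9, it was called higher for 4 and lower for 1. E2f1 (0.55), E2f3 (0.38), Tfdp2 (0.26) and Wdr5 (0.18) were the former and Hdac2 (-0.52) the latter. With size factors 2 were called higher and 1 lower, and with total counts 2 higher and 3 lower. E2f1 and E2f3, activating E2F proteins, fell under NRRA in Spo11KO-labelled cultures (log2 -0.49 and -0.43) and lay at 0.07 and -0.06 in Stra8KO without a call. Hdac2, a histone deacetylase, rose by 0.51 (log2) in the former and lay at -0.01 in the latter. Under NRRA, 1 of the 9 was called higher and 2 lower in Stra8KO, and 2 higher and 4 lower in Spo11KO-labelled cultures. Between the genotypes, 2 were higher and 5 lower in Veh, and 1 was higher and 4 lower in NRRA. Over all tested genes, NRRA calls took 41.9% in Stra8KO and 49.9% in Spo11KO-labelled cultures. Genotype calls took 62.3% in Veh and 64.0% in NRRA. The same shares stand beside the counts of the lists below.

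Close relatives of the subunits were set beside them. Tfdp2, the paralog of Tfdp1, rose by 0.47 in Stra8KO and by 0.21 in Spo11KO-labelled cultures (log2), where Tfdp1 fell. Per length, Tfdp1 exceeded Tfdp2 by 13.3 and 13.7 times in Stra8KO Veh and by 7.90 and 8.48 times in Stra8KO NRRA. The factor was 14.7 and 16.3 in Spo11KO-labelled Veh and 11.1 and 11.5 in Spo11KO-labelled NRRA. Of the 5 other PCGF genes, Pcgf5 rose under NRRA in both genotypes (log2 0.41 and 0.86), and Bmi1 rose by 0.17 in Spo11KO-labelled cultures. Pcgf1 fell by 0.47 on the log2 scale in Stra8KO. In all, 1 PCGF paralog was called higher and 1 lower in Stra8KO, and 2 higher and 0 lower in Spo11KO-labelled cultures. In the latter, 0 were lower at an unadjusted p under 0.05 in edgeR and 0 with DESeq2. Their interaction was called lower for Pcgf1 (-0.59) and Pcgf5 (-0.45), while that of Pcgf6 was called higher, and 0 of the paralogs were called higher by edgeR, by DESeq2 or at an unadjusted p under 0.05. Between the genotypes 2 were higher and 2 lower in Veh, and 0 higher and 3 lower in NRRA, where the count of 0 held at an unadjusted p under 0.05 in edgeR and with DESeq2. The ratio of Pcgf6 to Bmi1 per length was 0.877 and 0.720 in Spo11KO-labelled Veh and 0.563 and 0.511 in Spo11KO-labelled NRRA. In Stra8KO it was 0.459 and 0.523 in Veh and 0.587 and 0.601 in NRRA. These ratios were not tested.

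MAX also binds MYC, MXD and MNT proteins, which share it with MGA. Of 9 genes of this network, 8 of them partners of MAX and the other, Mlx, a relative that pairs with MXD proteins instead, 4 were called higher and 4 lower under NRRA in each genotype. Mycl rose by 1.12 and 0.81 (log2) in Stra8KO and in Spo11KO-labelled cultures, and Mxd4 by 0.63 and 0.81. Myc itself fell, by 0.29 and 0.36 on the log2 scale. Mycn rose by 0.32 in Stra8KO and fell by 1.08 on the log2 scale in Spo11KO-labelled cultures, with an interaction of 1.40 (edgeR adjusted p 1.97e-18). Mxi1 did the opposite (log2 -0.43 and 0.26, interaction -0.69), and Mxd4 also had a lower interaction (-0.18). Between the genotypes 3 of the 9 were higher and 3 lower in Veh, and 4 higher and 3 lower in NRRA.

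The known target genes of PRC1.6 were compared in the same way. Under NRRA 8 of 14 were called higher in Stra8KO and 0 lower (median 0.14), and 8 were higher and 2 lower in Spo11KO-labelled cultures (median 0.16). Over all genes, 21.6% were called higher in Stra8KO and 24.5% in Spo11KO-labelled cultures. In Stra8KO, DESeq2 called 6 higher and 0 lower, and at an unadjusted p under 0.05 the edgeR counts were 9 and 0. Sycp3, the axial element protein whose promoter stretch above holds 2 E-boxes, had 6.08 and 7.15 CPM in Stra8KO Veh and 14.3 and 12.3 CPM in Stra8KO NRRA. It had 10.8 and 12.01 CPM in Spo11KO-labelled Veh and 51.8 and 50.3 CPM in Spo11KO-labelled NRRA. It rose in both genotypes, by a log2 of 1.01 and 2.16, and the rise was smaller in Stra8KO (interaction -1.15, edgeR adjusted p 2.55e-08).

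Stag3, a meiotic cohesin subunit with 1 E-box in the stretch above, had 108 and 102 CPM in Stra8KO Veh and 189 and 187 CPM in Stra8KO NRRA. It had 170 and 164 CPM in Spo11KO-labelled Veh and 373 and 365 CPM in Spo11KO-labelled NRRA, rising by a log2 of 0.84 and 1.14 (interaction -0.30). Smc1b, another meiotic cohesin with E2F6 letters, had 72.6 and 68.3 CPM in Stra8KO Veh and 71.5 and 60.1 CPM in Stra8KO NRRA, groups that overlapped. In Spo11KO-labelled cultures it went from 128 and 139 CPM to 215 and 230 CPM (log2 0.74), with an interaction of -0.84. These 3 genes had the lower called interactions of the list. Tex101, Tuba3a and Tuba3b had called interactions of 0.21, 0.16 and 0.17, which were not called with size factors or total counts, so the list counted 3 higher and 3 lower, or 0 higher and 3 lower. Tuba3a and Tuba3b are near-identical copies with uncertain counts, and both fell in Spo11KO-labelled cultures (log2 -0.22 and -0.13). Between the genotypes, 14 of 14 targets were called lower in Stra8KO in both media, with medians of -0.97 and -0.94, by DESeq2 as well as edgeR. Over all genes, edgeR called 30.7% lower in Veh and 28.9% lower in NRRA. The medians of the pan-germ markers, which share Ddx4, Dazl, Mael and Tex101 with the list, were -0.97 and -0.91.

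**Figure D5:**
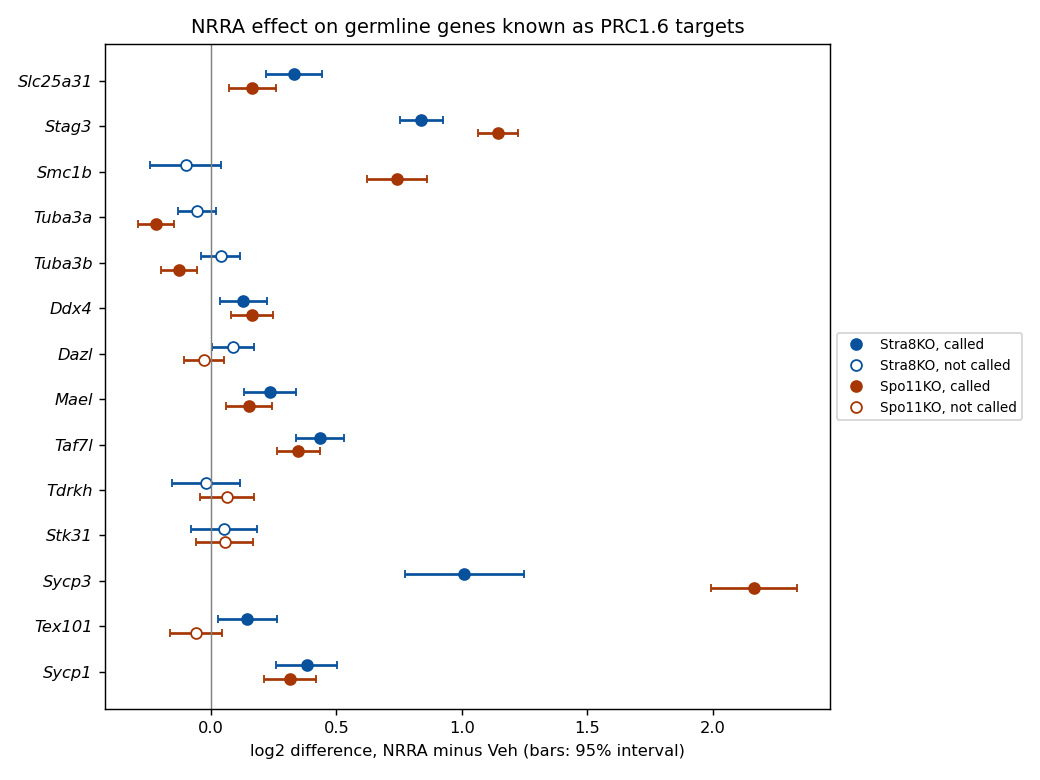
Log2 difference between NRRA and Veh for 14 known PRC1.6 target genes in Stra8KO (blue) and in Spo11KO-labelled cultures (red), with 95% intervals from the edgeR fit and filled points for calls. Sycp3 lay at 1.01 and 2.16, Smc1b at -0.10 and 0.74, Stag3 at 0.84 and 1.14, and the other targets between -0.22 and 0.44.

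Other repressors of germline genes, such as DNA methyltransferases and histone methyltransferases, were listed for comparison. Of 10, 5 were called higher and 2 lower under NRRA in Stra8KO, and 3 higher and 3 lower in Spo11KO-labelled cultures. Dnmt3b rose most in each (log2 0.48 and 0.98), followed by Ehmt2, which encodes G9a, in the latter (0.49). Uhrf1, which guides DNA methylation to replicated DNA, fell by 0.21 and 0.46 on the log2 scale. The interaction was called higher for 3 and lower for 2. Between the genotypes, 2 were higher and 8 lower in each medium, with Uhrf1 at -1.16 and Dnmt3b at -1.27 the lowest in Veh and NRRA.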

How the data were processed

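Poly(A) RNA of mouse spermatogonial cultures was sequenced in 8 libraries, 2 in each of 4 groups taken from the sample titles. Per the labels, the authors used bcl2fastq, STAR 2.6.1c, featureCounts 1.6.4 and the mm10 build, and deposited raw read counts per gene. The annotation release, strand setting and treatment of multiply mapped reads are not given in the sources used here, so reads of overlapping genes and near-identical copies may have been split or dropped.

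Gene counts entered edgeR 4.0.16 (R 4.3.3). After filterByExpr 20588 genes remained, with 99.88% of counts. With TMM scaling, all 8 libraries were fitted together in 1 quasi-likelihood model of group means. Tests were two-sided with Benjamini-Hochberg adjustment over these genes, and adjusted p-values under 0.05 were called. SE is the absolute log2 difference divided by the square root of F. Scripts were tested on simulated data. DESeq2 1.42.0, the study's own tool, was an alternative. The others were size factors, total counts, other filters, only the 4 libraries compared, an adjusted p under 0.01, a replicate block and leaving out each library. Duplicates of a group differed by more than sampling noise (mean chi-square per gene 1.86 to 4.12) and were counted as separate samples. Positions and exon lengths came from GENCODE M21, which held 99.67% of the identifiers. The text names the subunits, Stra8, Spo11 and listed genes, with values for at most 3 rises and 3 falls of a list per comparison. The members and lists were chosen with earlier results of these data known.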

Additional observations from a re-analysis of the deposited data

Results flagged for a closer look

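Of the 10 subunits, 3 had a called interaction, that is, their log2 changes under NRRA were not the same in Stra8KO as in Spo11KO-labelled cultures. Over all tested genes the interaction was called for 25.1%, so a count of 3 in 10 is near the background. The difference was 0.64 (log2, SE 0.109) for Pcgf6, with 22.5 to 23.9 CPM in Veh and 27.2 to 27.7 CPM in NRRA in Stra8KO, and 34.6 to 39.6 CPM in Veh and 27.2 to 29.1 CPM in NRRA in Spo11KO-labelled cultures. It was 0.45 (log2, SE 0.0869) for E2f6 and 0.41 (log2, SE 0.0794) for Cbx3. The highest group mean was that of Spo11KO-labelled Veh for all 3. The same held for Tfdp1 (182 CPM) and L3mbtl2 (85.7 CPM), whose interactions were not called. For each of the 3 subunits with a called interaction, the NRRA effect was called in Spo11KO-labelled cultures as a fall. Leaving out any single library, the edgeR adjusted p of these interactions was at most 3.80e-04, 0.00199 and 0.00325.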

How the results depend on the processing

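The number of subunits called stayed within 1.5 times its main value under every alternative run, at 5 to 7 for NRRA in Stra8KO (main 7), 7 to 10 for NRRA in Spo11KO-labelled cultures (main 8), 7 to 8 between genotypes in Veh (main 7), 6 to 9 between genotypes in NRRA (main 8) and 3 to 4 for the interaction (main 3). Of 50 subunit differences, 0 that were called changed sign. Total counts moved the median of all genes from 0.07 to -0.14 between genotypes in NRRA and from 0.0012 to -0.11 in Veh, and the subunit medians there from -0.16 to -0.37 and from -0.53 to -0.64. The share of called interactions over all genes that were higher was 59.0%, or 45.9% with no filter.

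Differences that changed sign were near 0 and uncalled. Ring1 between genotypes in Veh was 0.0095 with size factors, 0.0079 with no filter and 0.0086 with DESeq2, and -0.060 to 0.050 with a library left out. Max there was -0.018 with total counts. The interaction of Rnf2 was -0.013 with size factors, -0.074 with total counts, -0.044 with no filter and -0.012 with DESeq2, and -0.053 to 0.099 with a library left out. That of Mga was -0.0070 with total counts, and that of Tfdp1 ran from -0.040 to 0.016 with a library left out. E2f6 under NRRA in Stra8KO ran from -0.0029 to 0.10 and Pcgf6 between genotypes in NRRA from -0.083 to 0.0066. The cause was not tested.

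Whether replicate numbers pair the libraries was not settled. Correlations of same-numbered deviations ran from -0.14 to 0.23 over 11389 genes. The highest was between Veh and NRRA of Spo11KO-labelled cultures, and in Stra8KO that correlation was 0.03. Such correlations alone cannot decide whether libraries shared a culture or day. With a replicate block the counts were 7, 8, 7, 8 and 3 in the order above. With 2 libraries a group, a difference missing its call is not shown to be absent.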
